A study of Homo sapiens with 8 samples.

Results

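The genes of glycolysis, the pathway that turns glucose into pyruvate and lactate, and the genes that respond to low oxygen were followed in a human salivary gland cell line exposed to the cytokine TNF-α. The members are a list of 37 gene symbols, and all probe sets that the platform annotation pairs with 1 of these symbols alone were taken. This gave 117 probe sets for 34 members (19 of glycolysis and 15 of the hypoxia response) among 18239 measured genes. SLC2A3 is listed only on 5 probe sets shared with SLC2A14 and was left out, and no probe set was paired with SLC16A3 or CA9 in the annotation. A member with several probe sets is given by its brightest, the one with the highest mean over all arrays, and the others are compared with it further on. Of the 34 members, 28 had a mean above 5.16, the median of the means of all genes. The 6 below it were PFKFB4, ALDOC, EGLN3, ANGPTL4, CA12 and ANKRD37.

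The cells were NS-SV-AC, human salivary acinar cells that were immortalised, and all groups are this 1 line. They were kept in air with added CO2 and no group was labelled as hypoxic. The treatment was TNF-α at 20 ng/ml, the control was bovine serum albumin (BSA), and RNA was extracted at 2, 6, 12 and 24 h. A single Affymetrix GeneAtlas array was measured for each of the 8 combinations, so no value has a replicate and a p-value measures only the spread between arrays of different times. Each array holds the RNA of a whole culture, so fewer cells of a kind and less RNA per cell cannot be told apart. Values are log2 RMA values, where a difference of 1 is 2-fold. A brightness depends on the probes as well as on the transcript, so differences are taken between arrays, and a gene called dim or set against the median of genes is only placed roughly.

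The labelled cell type was set against its markers, and 0 of 9 measured salivary acinar markers had a mean above the median of genes. The brightest of them was AQP5, the water channel of acinar cells, with a mean of 4.05. Of the epithelial markers 2 of 9 lay above the median (KRT18 at 9.76 and KRT8 at 7.65), as did 3 of 6 fibroblast markers (among them COL3A1 at 9.34), 1 of 5 myoepithelial, 1 of 4 leukocyte (CD68 at 5.33) and 0 of 4 endothelial markers. The TNF-α array at 24 h stood apart. The gap between the 3′ and the 5′ control probe sets of GAPDH, a usual sign of degraded RNA when wide, was 6.28 there and 0.20 to 0.37 on the other 7 arrays. That array is therefore left out of the tests and its values are given separately.

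In glycolysis, glucose enters through transporters such as SLC2A1 and is trapped by hexokinases, split by aldolase into triose phosphates and converted by PGK1, enolase and pyruvate kinase to pyruvate. LDHA reduces pyruvate to lactate, while PDK1 holds back its entry into mitochondria by phosphorylating pyruvate dehydrogenase. When oxygen is scarce, the prolyl hydroxylases EGLN1 and EGLN3 no longer mark the factors HIF1A and EPAS1 for destruction, and these switch on most glycolytic genes together with VEGFA, ADM, NDRG1 and others. Inflammatory signalling through NF-κB can also raise HIF1A transcription. HIF activity is set mostly at the protein level, which arrays do not measure.

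In the control arm several glycolytic enzymes between aldolase and lactate dehydrogenase (ALDOA, TPI1, PGK1, ENO1, PKM and LDHA) read close to or above their 2 h level at 6 and 12 h, the lowest difference being -0.05 for ALDOA at 12 h. They were lower at 24 h, ENO1 by 3.92-fold, ALDOA by 3.47-fold and PKM by 2.83-fold against 2 h. PDK1 read 2.97-fold higher. Of the 19 glycolysis members, 14 were lower and 5 higher at 24 h than at 2 h in BSA, with a median difference of -0.52 against -0.03 over all genes. The 15 hypoxia members were divided, with 10 higher, 5 lower and a median of 0.21, which became 0.05 after a second quantile normalisation and -0.02 when a gene's probe sets were averaged. At least 2-fold, 2 members were higher (PDK1 and EPAS1) and 4 lower (ENO1, ALDOA, PKM and NDRG1), where 2.54% and 1.83% of all genes were. Averaging a gene's probe sets left 0 of the 2 higher. All of these counts rest on 1 array at each time.

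**Figure D1:**
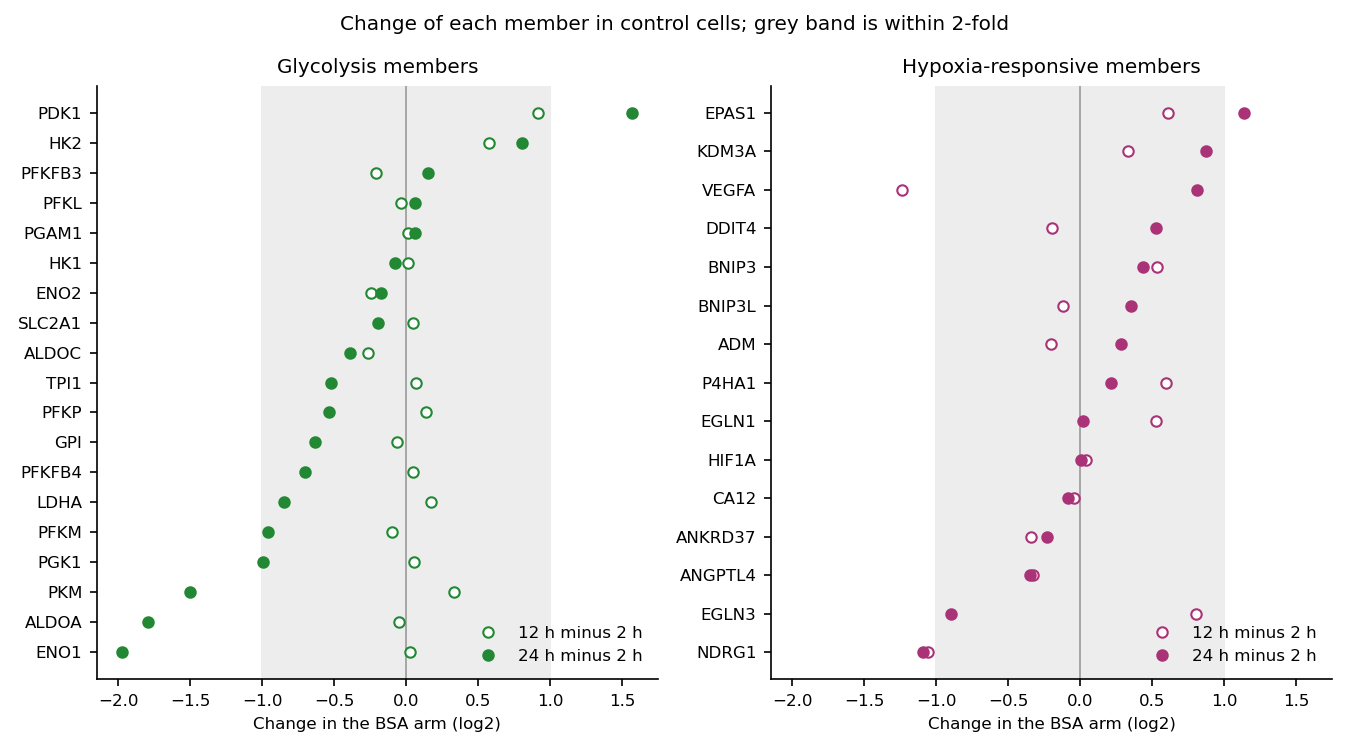
Change in log2 RMA value of each of the 34 members in BSA at 12 h (open points) and at 24 h (filled points) against the BSA array at 2 h, with glycolysis and hypoxia members in separate panels and 1 array behind each value. At 12 h all glycolysis members lie within 2-fold of 2 h, and at 24 h ENO1, ALDOA and PKM lie beyond 2-fold below it and PDK1 beyond 2-fold above it.

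The first steps of the pathway had no 2-fold change on the 7 arrays. SLC2A1, the main glucose transporter of most cultured cells, ranged from 7.52 to 8.44 over the 7 arrays, and its highest value was in BSA at 6 h. HK1, the housekeeping hexokinase, stayed between 8.53 and 8.82. HK2, the inducible hexokinase, was 5.44, 5.94, 6.02 and 6.25 in BSA at 2, 6, 12 and 24 h, its highest value being the last. GPI, which turns glucose 6-phosphate into fructose 6-phosphate, ranged from 7.13 to 8.09 and was lowest in BSA at 24 h.

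Phosphofructokinase, the committed step, has 3 subunit genes, and they did not move alike. PFKM was 8.60, 8.69, 8.50 and 7.64 in BSA and 8.43, 8.30 and 7.64 in TNF-α up to 12 h. It was thus low in both arms at their last usable time. PFKP, at 8.08 to 8.83, was lowest in BSA at 24 h, whereas PFKL, at 5.38 to 5.97, was highest at 6 h in both arms. PFKFB3, which makes the activator of phosphofructokinase, ranged from 7.10 (TNF-α at 12 h) to 7.75, and PFKFB4, its dim relative, from 4.16 to 5.12.

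ALDOA, the main aldolase, was 10.92, 11.17, 10.87 and 9.13 in BSA at 2, 6, 12 and 24 h, and 10.80, 10.93 and 10.84 in TNF-α at 2, 6 and 12 h. The BSA array at 24 h lay below the other 6, which overlapped between the arms. TPI1, which interconverts the triose phosphates, was 11.54, 11.76, 11.61 and 11.01 in BSA and 11.49, 11.57 and 11.46 in TNF-α. Its BSA value at 24 h was again the lowest, though by less. ALDOC, the brain-type aldolase, was dim at 4.61 to 5.05.

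PGK1, the first ATP-forming step, was 10.89, 11.02, 10.95 and 9.90 in BSA and 10.82, 10.92 and 10.96 in TNF-α. ENO1, the main enolase, was 10.45, 10.49, 10.48 and 8.48 in BSA and 10.40, 10.51 and 10.61 in TNF-α. Both genes stayed within a narrow range on the 6 arrays from 2 to 12 h, and the BSA array at 24 h lay far below. PKM, the pyruvate kinase gene, was 6.13, 6.997, 6.46 and 4.63 in BSA and 6.17, 6.88 and 6.83 in TNF-α, so that it was higher at 6 h than at 2 h in both arms before the low value at 24 h. PGAM1, the mutase between PGK1 and enolase, stayed at 11.82 to 12.01 on its brightest probe set, and ENO2, the neuronal enolase, at 5.68 to 5.95.

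LDHA, which makes lactate, was 11.84, 11.80, 12.01 and 10.99 in BSA and 11.75, 11.80 and 11.93 in TNF-α. Its BSA value at 24 h was the lowest of the 7. PDK1 went the other way, with 5.58, 6.00, 6.49 and 7.15 in BSA and 5.57, 6.04 and 6.02 in TNF-α. Its BSA values were ordered by time throughout, and the arms differed by 0.48 at 12 h.

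**Figure D2:**
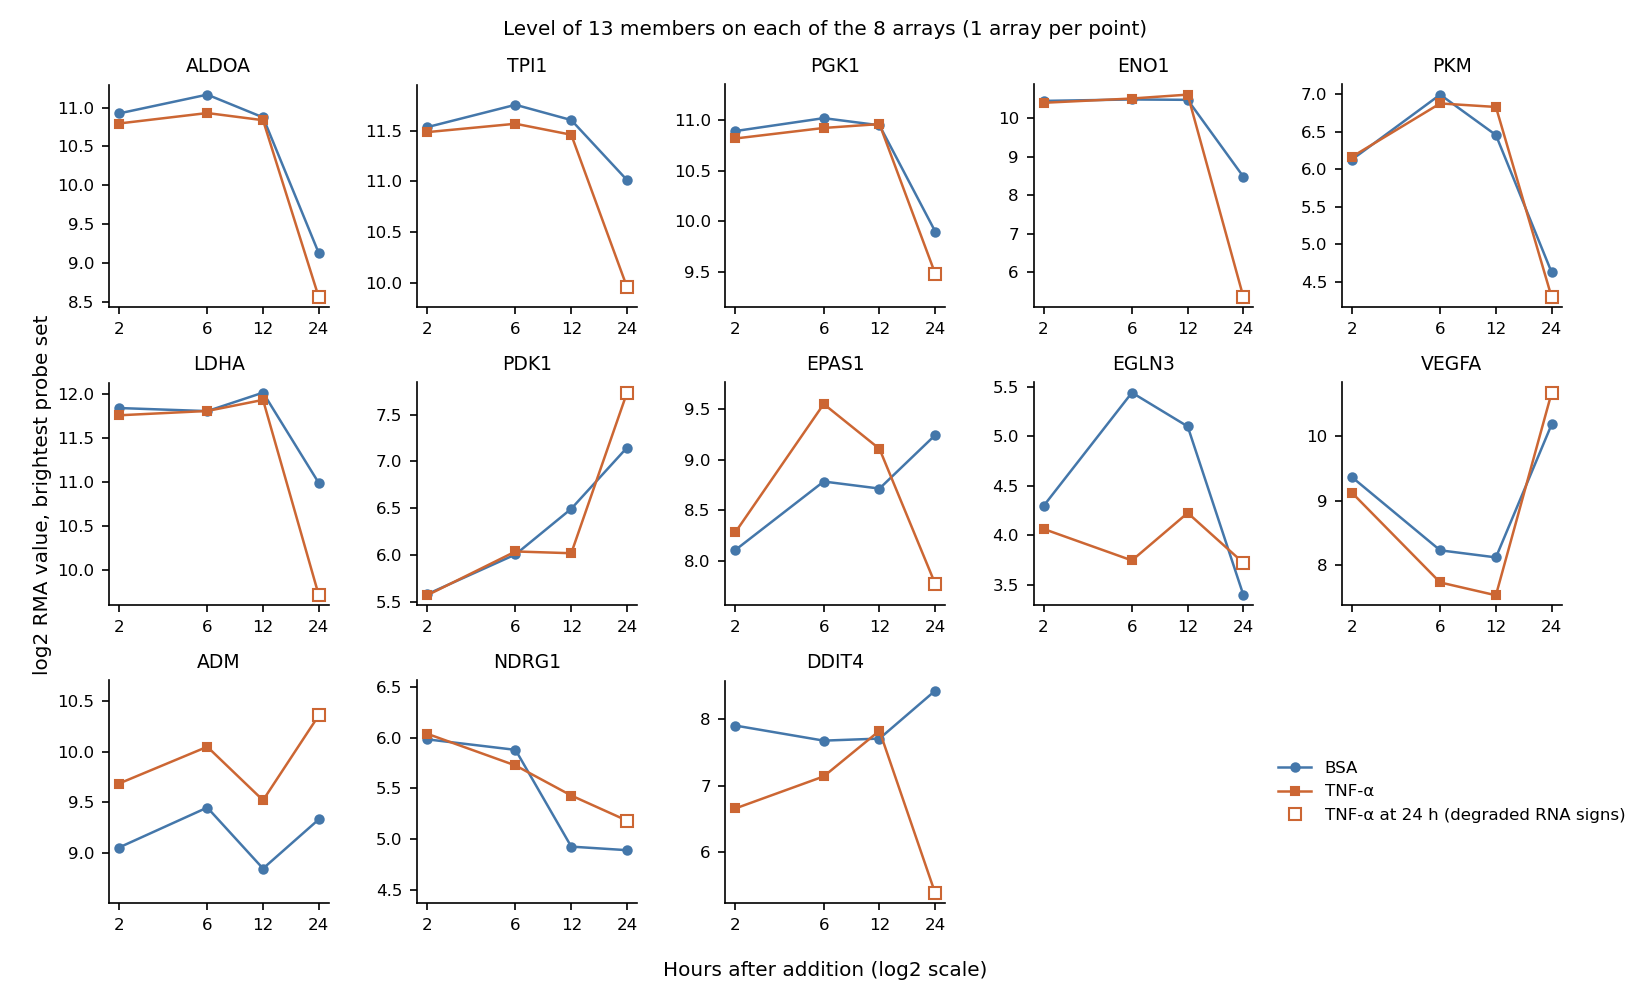
Level in log2 RMA units (vertical axes, scaled separately for each gene) against hours after addition (horizontal axes, log2 scale) for the 13 members that passed a test or reached a 2-fold difference without the TNF-α array at 24 h. Each point is 1 array, blue for BSA and orange for TNF-α, and the open square is the TNF-α array at 24 h. ENO1, ALDOA, PGK1, LDHA, TPI1 and PKM are lowest at 24 h in BSA, VEGFA is lower at 6 and 12 h than at 2 h in both arms, and ADM is higher in TNF-α at each time.

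Was this change with time larger than the spread between arrays? With limma, a slope on log2 of the hours, common to both arms, passed an adjusted p of 0.05 for 0 of 34 members and 0 genes (0%), although 6 members and 1494 genes had an unadjusted p under 0.05. The slope of PDK1 had the smallest adjusted p among the members, 0.35 ± 0.06 (SE, 7 arrays) per doubling of time with an adjusted p of 0.322. Within BSA the slope of PDK1 was 0.43 ± 0.06 and again 0 members and 0 genes (0%) passed, with 4 members and 1278 genes under 0.05 unadjusted. Within TNF-α 0 members passed against 0.011% of genes, with 1 member (DDIT4) and 847 genes under 0.05 unadjusted. The slopes of the arms did not differ past the threshold for any member or gene (0%), with 0 members and 618 genes under 0.05 unadjusted.

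Because the low values at 24 h form a step and not a slope, a model with treatment and a term for 24 h against 2 to 12 h was added after the values were seen. In it 6 of 34 members fell and 0 rose, where 2.7% of genes fell and 3.41% rose (limma, 7 arrays, Benjamini-Hochberg adjusted p under 0.05 over all genes). ENO1 fell by 1.99 ± 0.11 (SE) with an adjusted p of 0.00402 and ALDOA by 1.86 ± 0.14 with an adjusted p of 0.00651. PGK1 fell by 1.05 ± 0.10 (adjusted p 0.0103) and LDHA by 0.90 ± 0.13 (adjusted p 0.0202). The remaining calls were TPI1, which fell by 0.62 ± 0.12 (adjusted p 0.0377), and PKM, which fell by 1.90 ± 0.39 (adjusted p 0.0465). All 6 act in the stretch from aldolase to lactate dehydrogenase. PGAM1 acts there too, but on its brightest probe set it differed by 0.06 in this model and did not pass. PFKP (-0.65, adjusted p 0.0625), GPI (-0.72, adjusted p 0.0809) and PFKM (-0.95, adjusted p 0.121) did not pass, nor did PDK1 (1.12, adjusted p 0.128) or KDM3A (0.92, adjusted p 0.21).

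The model was chosen with the same low values in view, so the counts describe the BSA array at 24 h and are no independent evidence. Without the 12 h arrays 0 members and 0 of all genes passed, against 1114 genes with them, and ENO1 and ALDOA were then at -1.99 and -1.92 with an adjusted p of 0.0923. Without the 6 h arrays 2 members (ENO1 and ALDOA) and 44 genes passed, and without the 2 h arrays 5 members (ENO1, ALDOA, PGK1, PKM and, higher, VEGFA) and 330 genes. Other abundant transcripts were low on the same array. The 3′ control probe set of ACTB read 10.64 there against 12.16 to 12.24 on the other BSA arrays, and KRT8 read 6.37 against 8.59 to 8.91. The gap between the 3′ and 5′ control probe sets of ACTB was 3.47 there and 2.59 to 3.09 on the 6 arrays from 2 to 12 h, while that of GAPDH was 0.21, within the range of those arrays. The part of these differences in the fall of the enzymes was not tested. Among the 638 genes with a mean of at least 10, 25 (3.92%) were at least 2-fold lower in BSA at 24 h than at 2 h. GAPDH, the glycolytic step just before PGK1, was 12.26, 12.26, 12.28 and 12.13 in BSA and did not pass (-0.13, adjusted p 0.444).

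At 24 h in BSA 13 of 19 glycolysis members read below their own 2 to 12 h range, 4 above and 2 inside it. Of the 15 hypoxia members 4 read below, 5 above and 6 inside. Over all genes 35.6% read below and 30.0% above.

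Among the HIF factors and their hydroxylases, HIF1A itself ranged from 10.30 (BSA at 6 h) to 10.85 over the 7 arrays. It had no 2-fold change. EPAS1, the gene of HIF-2α, was 8.11, 8.79, 8.72 and 9.24 in BSA and 8.28, 9.55 and 9.11 in TNF-α. It was above its 2 h value at every later time in both arms over these arrays, most in TNF-α at 6 h (1.27). EGLN1, the main prolyl hydroxylase, ranged from 7.84 to 8.43. EGLN3, the inducible one, was 4.29, 5.44, 5.10 and 3.39 in BSA and 4.06, 3.75 and 4.22 in TNF-α, levels near or below the median of genes.

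VEGFA, the angiogenic growth factor, was 9.36, 8.23, 8.12 and 10.18 in BSA and 9.12, 7.74 and 7.54 in TNF-α. Both arms were lower at 6 and 12 h than at 2 h, with differences of -1.13 and -1.24 in BSA and -1.39 and -1.58 in TNF-α, and BSA was highest at 24 h. VEGFA was the member furthest below its 2 h level at 12 h in each arm, and no slope test passed for it. ADM, which encodes the vasodilator peptide adrenomedullin, was 9.05, 9.45, 8.85 and 9.33 in BSA and 9.68, 10.05 and 9.52 in TNF-α. Its arms did not overlap: the lowest TNF-α value lay above the highest BSA value. ANGPTL4, a secreted lipase inhibitor, and CA12, a carbonic anhydrase of the cell surface, were dim at 4.50 to 5.09 and 4.35 to 4.67.

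BNIP3 and BNIP3L, the mitophagy receptors, ranged from 9.12 to 9.67 and from 8.55 to 9.45. BNIP3 was higher at 12 h than at 2 h in both arms and BNIP3L was lowest at 6 h in both. NDRG1, a stress-responsive gene, was 5.98, 5.88, 4.93 and 4.89 in BSA and 6.04, 5.73 and 5.43 in TNF-α, so that it was lower at 12 h than at 2 h in both arms, with differences of -1.06 and -0.61. DDIT4, an inhibitor of mTORC1 signalling, was 7.91, 7.68, 7.71 and 8.43 in BSA and 6.66, 7.14 and 7.83 in TNF-α. It was the 1 member at least 2-fold higher at 12 h than at 2 h in TNF-α, from a low start. KDM3A, a histone demethylase, ranged from 6.33 to 7.69 and was lowest at 6 h in both arms, while P4HA1, a collagen prolyl hydroxylase, ranged from 7.77 to 8.47 and ANKRD37 from 4.73 to 5.16.

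How far did the arms share these changes? The arms have separate 2 h arrays, so their changes can be set side by side. At 6 h 1 member was at least 2-fold higher and 1 lower in each arm (EGLN3 and VEGFA in BSA, EPAS1 and VEGFA in TNF-α), where 0.477% and 0.965% of genes were in BSA and 1.12% and 1.1% in TNF-α. At 12 h 0 members were higher and 2 lower in BSA (VEGFA and NDRG1), against 0.175% and 0.345% of genes. In TNF-α 1 was higher (DDIT4) and 1 lower (VEGFA), against 1.17% and 1.22% of genes. From 2 to 12 h, 18 members were higher in both arms, 8 lower in both and 8 opposite. Over all 18239 genes, 4642 were higher in both, 6325 lower in both and 7261 opposite. Across the 34 members the 12 h changes of the arms correlated with r = 0.67, and across all genes with r = 0.44. These are descriptions, since genes are not independent replicates. At 12 h in BSA both VEGFA and NDRG1 came out under 2-fold when the probe sets of each gene were averaged.

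**Figure D3:**
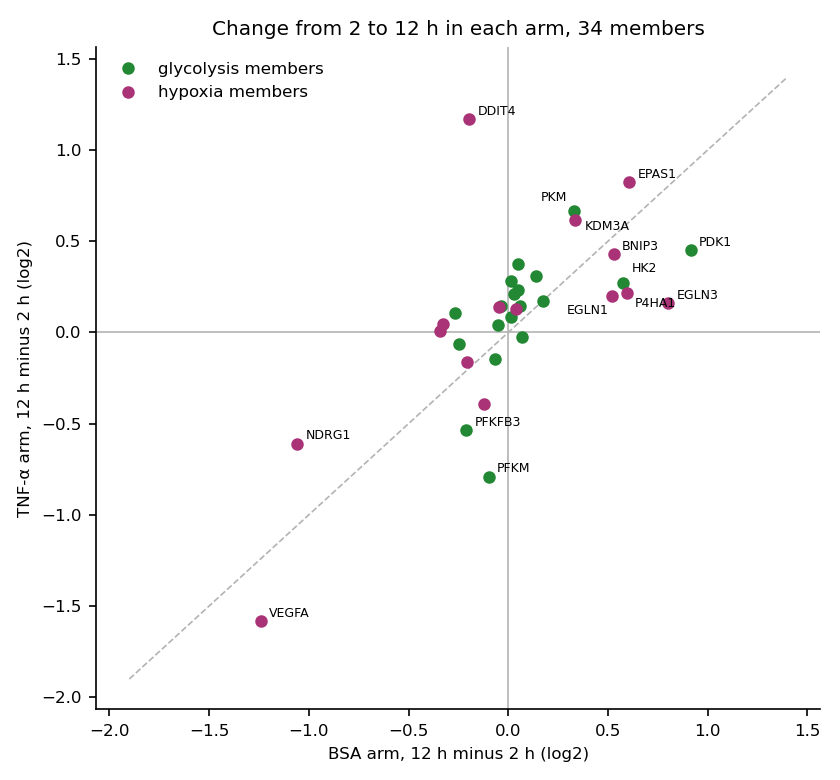
Change from 2 to 12 h in the TNF-α arm (vertical, log2) against the change in the BSA arm (horizontal, log2) for the 34 members, green for glycolysis and purple for hypoxia, with the line of equal change dashed. VEGFA and NDRG1 are low in both arms, EPAS1 and PDK1 higher in both, and DDIT4 changes by 1.17 in TNF-α and by -0.20 in BSA.

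TNF-α against BSA at the same time was tested over 2 to 12 h. ADM was the 1 member that passed: it rose by 0.64 ± 0.07 (SE, 3 pairs of arrays; limma adjusted p 0.0438), being higher by 0.63, 0.60 and 0.67 at 2, 6 and 12 h. Over all genes 0.318% rose, 0.0493% fell and 0.367% changed in either direction. Its second probe set above the median of genes was also higher at each of these times. The call is close to the threshold. It was lost, with sizes between 0.61 and 0.73, with both 24 h arrays added (adjusted p 0.368), with the mean of probe sets (0.0616), with every probe set fitted (0.0503), with a second quantile normalisation (0.0504), without the 6 h arrays (0.401) and without the 12 h arrays (0.14).

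In all, 6 members and 2554 of 18239 genes (14.0%) had an unadjusted p under 0.05. The members other than ADM did not pass after adjustment. VEGFA differed by -0.44 ± 0.09 (adjusted p 0.189), with -0.24, -0.50 and -0.58 at 2, 6 and 12 h. EPAS1 differed by 0.44 ± 0.12 (adjusted p 0.251) and was higher in TNF-α by 0.17, 0.77 and 0.39. Neither gene changed side from 2 to 12 h. EGLN3 differed by -0.93 ± 0.26 (adjusted p 0.251), with its largest gap, -1.69, at 6 h, and its second probe set was lower in TNF-α by less at that time. PFKM differed by -0.47 ± 0.14 (adjusted p 0.262) and SLC2A1 by -0.37 ± 0.13 (adjusted p 0.322). Without the 2 h arrays 5 members passed, ADM and EPAS1 higher and PFKM, EGLN3 and VEGFA lower, and calls rose over all genes too, from 67 to 1094 of 18239.

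DDIT4 had the largest single gap at 2 h. TNF-α minus BSA was -1.25 at 2 h, -0.54 at 6 h and 0.12 at 12 h, and its mean difference of -0.56 ± 0.24 did not pass (adjusted p 0.386). It was the 1 member at least 2-fold lower at 2 h, where 0.0439% of genes were, and 0 were higher, where 0.493% were. At 6 h the 1 such member was EGLN3, lower, against 0.384% of genes, and 0 were higher against 1.38%. At 12 h 0 members were 2-fold apart in either direction, against 1.29% of genes higher and 0.839% lower. At 2 h 17 of 19 glycolysis members read lower in TNF-α, but by little, with a median of -0.07 against -0.02 over all genes. By 12 h the split was 10 lower and 9 higher.

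**Figure D4:**
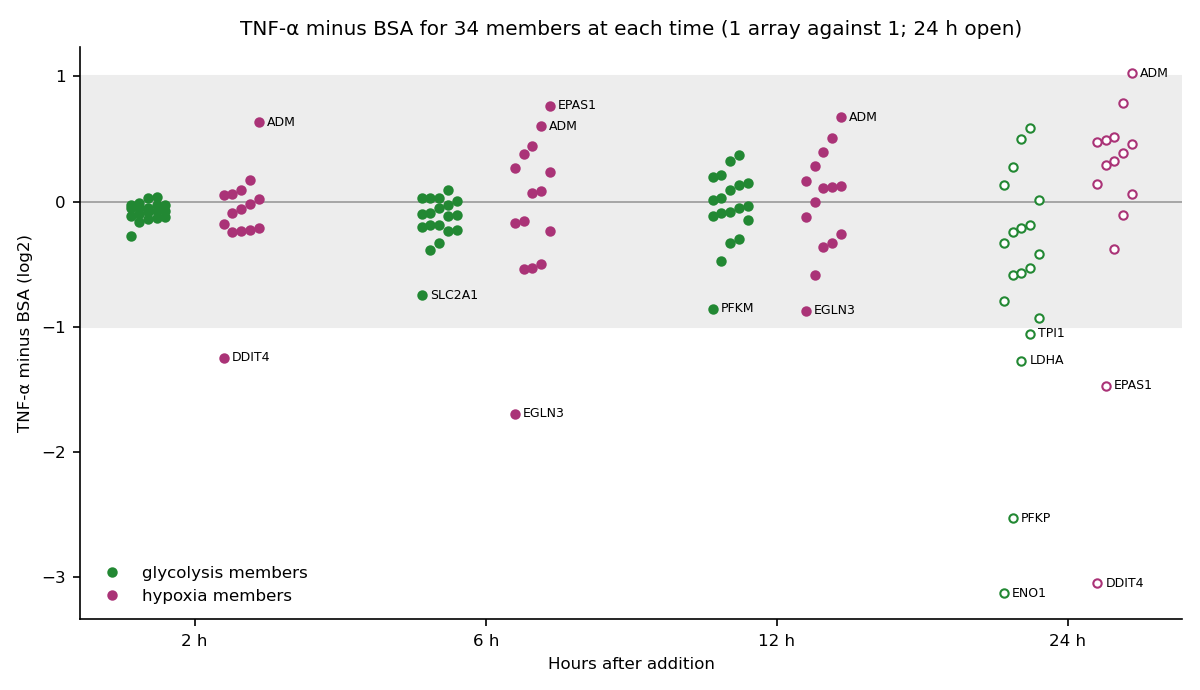
Difference in log2 RMA value between the TNF-α and the BSA array at 2, 6, 12 and 24 h for each of the 34 members, 1 pair of arrays per time. ADM lies between 0.60 and 0.67 from 2 to 12 h, DDIT4 goes from -1.25 to 0.12, and the spread is widest at 24 h, where the TNF-α array shows signs of degraded RNA.

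On the TNF-α array at 24 h the probe sets of 1 gene differed widely in their change from 2 h. For the 14 members with at least 2 probe sets above the median of genes, that change differed between probe sets of a gene by a median of 0.14 in TNF-α at 12 h, 0.12 in BSA at 12 h, 0.25 in BSA at 24 h and 1.64 in TNF-α at 24 h. HIF1A had the widest spread. Of its 8 probe sets, the brightest changed by 0.23 from 2 to 24 h in TNF-α and another by -4.57, whereas in BSA all 8 lay between -0.16 and 0.11. On this array 10 members were at least 2-fold lower and 3 higher than at 2 h, against 7.29% and 11.4% of genes, and 6 were lower and 1 higher than in BSA at 24 h, against 6.67% and 6.1%. ENO1 read 5.35, PFKP 5.55 and DDIT4 5.39 there, and PDK1 7.74, VEGFA 10.66 and ADM 10.36. The part of RNA quality in these values was not tested. With this array in the 24 h model, 13 members passed against 16.4% of genes, 4 higher (10.9% of genes) and 9 lower (5.56%). Those added were GPI, PFKM and PFKP, lower, and PDK1, VEGFA, BNIP3L and KDM3A, higher.

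**Figure D5:**
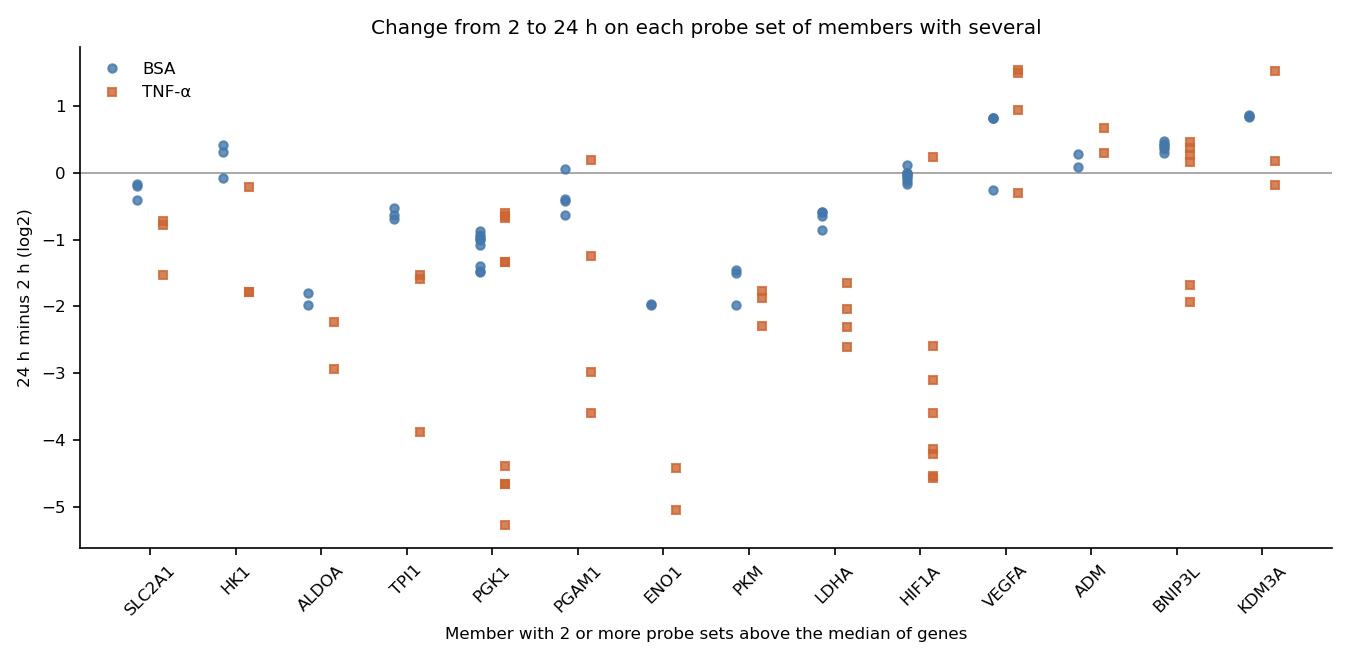
Change from 2 to 24 h (log2, vertical) on each probe set above the median of genes, for the 14 members with at least 2 of them, blue circles for BSA and orange squares for TNF-α. In BSA the median spread between probe sets of a gene is 0.25, with VEGFA (1.09) and PGAM1 (0.69) the widest, and in TNF-α those of PGK1, PGAM1 and HIF1A are spread over several log2 units.

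In BSA the fall at 24 h was seen on all such probe sets of the enzymes. The 9 probe sets of PGK1 lay between -1.49 and -0.88, the 4 of LDHA between -0.85 and -0.58, the 3 of TPI1 between -0.69 and -0.52 and the 3 of PKM between -1.97 and -1.46. ALDOA and ENO1 had 2 each, at -1.97 and -1.80 and both at -1.97. PGAM1 differed: its brightest probe set was 0.06 higher and the other 3 were lower, down to -0.63, so its level depends on the probe set. All 4 probe sets of PGAM1 carry the suffix x, Affymetrix's mark for probes that may bind other transcripts. The suffix is on 45 of the 117 probe sets, among them all of those of ALDOA, ENO1 and TPI1 and most of LDHA. Of the 10 probe sets of VEGFA, 4 lay above the median of genes. The 3 brightest were higher in BSA at 24 h than at 2 h, by up to 0.82, and a dimmer one changed by -0.26.

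Promoters are shown for ENO1, PGK1, PKM and ADM, the 4 members past a test that have 1 transcription start in the RefSeq table (GRCh38.p14), chosen after their values were seen. The 250 bases before the start are given 5′ to 3′ on the gene's strand, and capitals mark ACGTG and GCGTG on either strand, the core letters of the hypoxia response element to which HIF binds.
ENO1 (chr1:8878687-8878936, minus strand): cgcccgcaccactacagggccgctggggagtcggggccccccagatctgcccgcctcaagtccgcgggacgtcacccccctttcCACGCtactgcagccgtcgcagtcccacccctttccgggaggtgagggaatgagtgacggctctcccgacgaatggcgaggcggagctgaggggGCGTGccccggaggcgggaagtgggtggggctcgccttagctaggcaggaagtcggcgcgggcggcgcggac
PGK1 (chrX:78103998-78104247, plus strand): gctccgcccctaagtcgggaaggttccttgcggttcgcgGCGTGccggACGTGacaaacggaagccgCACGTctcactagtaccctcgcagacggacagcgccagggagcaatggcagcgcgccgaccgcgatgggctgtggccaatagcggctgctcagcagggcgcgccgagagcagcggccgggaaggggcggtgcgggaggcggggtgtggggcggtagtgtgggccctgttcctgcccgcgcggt
PKM (chr15:72231191-72231440, minus strand): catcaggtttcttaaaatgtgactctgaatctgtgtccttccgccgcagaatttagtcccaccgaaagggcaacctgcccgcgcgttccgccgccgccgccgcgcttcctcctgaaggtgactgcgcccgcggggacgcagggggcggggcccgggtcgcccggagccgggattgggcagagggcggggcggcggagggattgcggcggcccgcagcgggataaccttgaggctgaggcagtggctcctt
ADM (chr11:10304823-10305072, plus strand): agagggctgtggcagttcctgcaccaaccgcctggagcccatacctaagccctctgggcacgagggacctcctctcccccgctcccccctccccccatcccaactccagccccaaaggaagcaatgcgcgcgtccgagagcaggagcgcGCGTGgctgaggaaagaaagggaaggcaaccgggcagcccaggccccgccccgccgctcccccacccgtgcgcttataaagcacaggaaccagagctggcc

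ENO1 holds 2 copies of GCGTG, PGK1 holds 2 of ACGTG and 1 of GCGTG, ADM holds 1 of GCGTG and PKM none in this window. Of the 31 members with an entry, 27 hold at least 1 of the motifs in a window (87.1%), against 47.4% of 27305 genes and 43.2% of 35116 promoters. For ACGTG alone it was 18 of 31 members (58.1%) against 21.7% of genes. A loose form of the NF-κB site (GGG, then 5 bases of any kind, then CC, on either strand) was in 30 of 31 members (96.8%) and 57.8% of genes, a motif common in promoters at large. Genes with several listed starts have more windows and so more chances of a match, and ACGTG can overlap itself on the other strand. The printed windows are 68.0% to 72.0% G and C, and the part of base composition in these shares was not tested. The 4 members without either HIF motif were EGLN3, PGAM1, PKM and SLC2A1.

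Related genes outside the list were counted in the same tests, and the slope tests called 0 genes in each of the 4 lists. Over all genes 0.318% rose and 0.0493% fell with TNF-α, and 3.41% rose and 2.7% fell in the 24 h model. That model was added after the values were seen, and its calls describe the BSA array at 24 h. Of 30 other genes of glycolysis and glucose handling, 1 rose with TNF-α and 0 passed at 24 h. It was SLC2A6, a glucose transporter family member of intracellular membranes, which was higher in TNF-α by 1.54, 2.51 and 2.59 at 2, 6 and 12 h (2.21 ± 0.21, limma adjusted p 0.0295). LDHB, the other lactate dehydrogenase subunit, differed by -0.37 at 24 h and did not pass (adjusted p 0.0943). Of 21 genes of the pentose phosphate pathway, gluconeogenesis and glycogen, 4 fell at 24 h and 0 rose. TKT, transketolase, fell by 2.43 ± 0.27 (adjusted p 0.0123), and the others were GYS1, glycogen synthase (fell by 1.43), GBE1, the glycogen branching enzyme (fell by 0.97), and UGP2, which makes UDP-glucose (fell by 0.56).

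Among 18 other regulators of HIF, 0 passed for TNF-α. In the 24 h model, whose only 24 h array is BSA, VHL, which binds hydroxylated HIF for its destruction, rose by 0.95. The coactivator CREBBP rose by 0.73, while HIF3A fell by 1.36 and RBX1, part of the VHL ubiquitin ligase, by 0.46. On the TNF-α array at 24 h, VHL differed from 2 h by -1.29, CREBBP by 1.06, HIF3A by 0.10 and RBX1 by 0.22. That array has signs of degraded RNA. Of 35 other hypoxia-responsive genes, 2 rose with TNF-α and 1 fell. EDN1, endothelin, rose by 3.69 ± 0.22 (adjusted p 0.00828) and BHLHE40, a transcriptional repressor, by 1.08 ± 0.08 (adjusted p 0.0163), and PPP1R3C, a glycogen-targeting subunit of protein phosphatase, fell by 0.86 ± 0.08 (adjusted p 0.0261). In the same 24 h model RORA rose by 1.83, and the chemokine receptor CXCR4 (by 2.92), the hormone STC1 (by 1.08) and GBE1 fell. The hypoxia-responsive genes thus did not move in 1 direction in either test, with medians of -0.02 for TNF-α and -0.14 at 24 h.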

How the data were processed

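The deposited values are log2 expression values, 1 per probe set and array, made by the authors with RMA, per the submitters' processing notes. RMA corrects background, equalises the arrays' distributions and summarises probes. Whether all 8 arrays were normalised together, and with which software, is not given in the sources used here. Of 49386 probe sets, 45253 had 1 gene symbol, 1327 several, 2713 none and 93 were array controls. Of the Entrez identifiers, 18180 matched the RefSeq gene table and 62 did not. The brightest probe set stood for each of 18239 genes. Two-sided tests were made in limma (version 3.58.1, under R version 4.3.3) by lmFit followed by eBayes, with Benjamini-Hochberg adjustment over all genes and a threshold of 0.05. The TNF-α test paired arrays by time (6 arrays), and the slope and 24 h tests used 7. The fits were run on simulated data with the same noise level for every gene and changes planted in the fitted pattern. That setting is simpler than the real arrays, so it does not show how the tests perform on them. Differences between 2 arrays have no test. Arrays give no read depth, so their number limits precision.

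The members and lists were chosen with earlier results of these data known. Members given with all values are those that pass a test or reach a 2-fold difference without the TNF-α array at 24 h. The tests counted here include the 24 h model that was added later. PFKM meets neither rule and was given as well. Of other lists the genes that pass are named, with GAPDH and LDHB beside them. The planned rule for showing promoters picked VEGFA alone, which has no entry, so other members were shown. Alternatives were all 8 arrays, each time left out, other probe set rules and normalisations, a filter on dim genes, hours in place of log2 hours and a variance trend.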

Additional observations from a re-analysis of the deposited data

Results flagged for a closer look

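ANKRD37, a HIF target with ankyrin repeats, was picked out because its change from 2 h went down at every later time in BSA and up at every later time in TNF-α. It differed from 2 h by -0.30, -0.34 and -0.23 in BSA at 6, 12 and 24 h, and by 0.31, 0.0073 and 0.51 in TNF-α. The last of these is from the array with signs of degraded RNA. That difference in direction at each time was not tested. The test of the difference of slopes, without that array, gave 0.09 ± 0.11 (limma adjusted p 0.942). The gene is dim, its 12 h change in TNF-α is close to 0, and its second probe set, at about 3, lies further below the median of genes.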

How the results depend on the processing

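No member called by a test changed direction under any alternative run. Genes outside the members were not checked for this. Group medians near 0 did turn: with the mean of probe sets that of the hypoxia members in BSA at 24 h went from 0.21 to -0.02 and that of the glycolysis members for TNF-α minus BSA at 12 h from -0.04 to 0.03, and with a second quantile normalisation that of the hypoxia members in BSA at 12 h went from -0.04 to 0.0077. The slope tests called 0 members under every alternative. For TNF-α from 2 to 12 h the count of members went from 1 to 0 with all 8 arrays, the mean of probe sets, every probe set fitted and a second quantile normalisation, and ranged from 0 to 5 when 1 time was left out, while calls over all genes ranged from 0 to 1094. For the 24 h model it went from 6 to 13 with all 8 arrays and ranged from 0 to 5 when 1 time was left out. That model was chosen after seeing the data. ALDOA and ENO1 kept their call in 9 of 10 alternatives, PGK1 in 8, LDHA and PKM in 7 and TPI1 in 6. With the mean of probe sets the count of members at least 2-fold higher in BSA at 24 h went from 2 to 0. That of members lower in BSA at 12 h went from 2 to 0, and of those lower in TNF-α than in BSA at 6 h from 1 to 0. The median of the glycolysis members in BSA at 24 h was -0.35 with it. The causes of these shifts were not tested. The TNF-α test pairs arrays by time, and the labels give no replicate numbers for any other pairing.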

Other observations

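Probe sets shared by several genes belong to no member alone. The brightest of the 5 that SLC2A3 and SLC2A14 share read 8.17, 7.20, 7.29 and 7.91 in BSA at 2, 6, 12 and 24 h and 7.53, 6.19, 7.21 and 7.43 in TNF-α. It was lowest at 6 h in both arms. A probe set listed for PKM under its present and its older symbol, PKM2, read 8.11, 9.10, 8.66 and 6.50 in BSA and 8.09, 9.11, 9.03 and 4.68 in TNF-α. It had its highest value at 6 h in both arms, as PKM's brightest probe set did. A probe set shared by ENO1 and EDARADD read 9.31, 9.42, 9.47 and 7.47 in BSA and 9.36, 9.59, 9.71 and 3.39 in TNF-α, with 24 h lowest in both. Another, shared by ENO1 and TMEM11, read 7.06, 7.42, 7.08 and 7.16 in BSA and 6.98, 7.04, 7.18 and 5.99 in TNF-α. In BSA it was not lower at 24 h than at 2 h, unlike the probe sets of ENO1 alone.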
